A study of Mus musculus with 6 samples.

Results

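The Iroquois homeobox genes are Irx1, Irx2, Irx3, Irx4, Irx5 and Irx6, 6 of the 56691 genes counted in bulk RNA-seq of the mouse palate. They were taken by symbol, and all 6 were found. The samples were palatal shelves of C57BL/6J mice at embryonic day (E) 14.0, microdissected into the anterior 1/3 (3 libraries) and the posterior 1/3 (3 libraries), with no mutation or treatment in either group. The comparison of the 2 regions asks which genes differ along the anterior-posterior axis of the shelf. Values are given per library in the order anterior replicates 1, 2 and 3, then posterior replicates 1, 2 and 3, and every log2 fold change is posterior over anterior.

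Iroquois proteins are transcription factors with a homeodomain of the TALE type, which carries extra amino acids in the loop between its helices. The mammalian genes lie in a pair of clusters that arose by duplication, so that Irx1, Irx2 and Irx4 are the counterparts of Irx3, Irx5 and Irx6. They are known for regional patterning of the neural tube, heart, limb and face, and mutations of IRX5 cause a human syndrome with craniofacial malformations.

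In the palate, the cluster of Irx3, Irx5 and Irx6 carried most of the family's reads, and Irx3 and Irx5 were its highest genes. Irx3 was lower in every posterior library than in every anterior library, with a log2 fold change of -0.54 ± 0.13 (SE) and an adjusted p of 0.0508 by edgeR's quasi-likelihood test, just short of a call at the 0.05 threshold. Irx1, Irx2 and Irx5 also had lower posterior means, with overlapping libraries, and none of them passed the test. Irx4 and Irx6 were near the detection limit and were not tested.

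The 2 clusters were read from GENCODE M21 on GRCm38. Irx1 (minus strand, 71957921 to 71963723), Irx2 (plus strand, 72628820 to 72634198) and Irx4 (plus strand, 73260479 to 73269608) span 1312 kb of chromosome 13, with 665 kb between the first pair and 626 kb between the second. Irx3 (minus strand, 91798525 to 91802067), Irx5 (plus strand, 92357625 to 92376286) and Irx6 (plus strand, 92674288 to 92680956) span 882.4 kb of chromosome 8, with gaps of 556 and 298 kb. The counts were made over the exons of each gene, and no value below separates isoforms.

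RefSeq promoter sequence was at hand for Irx2, Irx3 and Irx4, and for the noncoding genes Irx3os and Crnde inside the chromosome 8 cluster. There was none for Irx1, Irx5 and Irx6. The windows of Irx2, Irx4 and Crnde are shown on the strand of the gene because they hold the bases upstream of a member of the first cluster that was tested, of a member near the detection limit, and of the noncoding gene whose reads are set beside those of Irx5 below. Capitals mark matches, on either strand, to the CCAAT box, the GC box GGGCGG, the TATA box TATAAA and the palindrome ACANNTGT, a motif known to be bound by Iroquois homeodomains. Irx2 lies at chr13:72628570-72628819 (plus strand), Irx4 at chr13:73260247-73260478 (plus strand) and Crnde at chr8:92356121-92356370 (minus strand), all on GRCm38.p6.
Irx2: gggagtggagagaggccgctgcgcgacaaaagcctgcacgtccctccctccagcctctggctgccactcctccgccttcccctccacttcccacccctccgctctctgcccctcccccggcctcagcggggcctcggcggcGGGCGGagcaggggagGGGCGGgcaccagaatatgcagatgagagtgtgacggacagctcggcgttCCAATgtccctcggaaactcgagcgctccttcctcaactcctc
Irx4: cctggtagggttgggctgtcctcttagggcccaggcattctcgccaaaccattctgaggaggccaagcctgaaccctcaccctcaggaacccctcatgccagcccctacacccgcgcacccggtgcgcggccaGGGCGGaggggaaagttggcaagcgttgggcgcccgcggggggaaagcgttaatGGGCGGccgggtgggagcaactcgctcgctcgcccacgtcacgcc
Crnde: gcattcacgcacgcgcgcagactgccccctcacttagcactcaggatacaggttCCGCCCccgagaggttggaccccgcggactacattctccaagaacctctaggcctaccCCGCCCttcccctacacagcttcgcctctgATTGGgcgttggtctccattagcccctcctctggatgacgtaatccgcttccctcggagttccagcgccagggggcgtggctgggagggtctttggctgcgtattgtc
The Irx2 window held 1 CCAAT and 2 GGGCGG matches, the Irx4 window 2 GGGCGG matches, and the Crnde window 1 CCAAT and 2 GGGCGG matches, with no overlap between matches. The 250-base window of Irx3, which lies inside the M21 gene model and is not shown, held none of the 4 motifs. Of 32851 promoter windows of 250 bases, 33.8% held CCAAT, 32.7% GGGCGG, 12.4% TATAAA and 6.31% ACANNTGT. The windows of Irx2 and Irx4 were rich in G and C (68.4% and 68.8%, against a median of 52.4% over all windows) and in CpG dinucleotides (19 and 22, against a median of 6). These values are for windows of 250 bases. That of Irx4 runs to 73260496, past the 232 bases shown, so its values cover a longer stretch than the printed one. The Irx3 window had 56.0% G and C with 13 CpG dinucleotides, and the Crnde window 62.0% with 17. A match is a description of letters, not a binding site.

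Between 11378736 and 15172733 reads were counted per library. The 3 counts that a count of 0 allows correspond to 0.198 to 0.264 counts per 1e+06 counted reads before scaling. CPM stands for counts per 1e+06 counted reads, scaled between libraries. On that scale 3 counts were 0.206 CPM in posterior replicate 3, the library at 0.198 before scaling. Posterior replicates 2 and 3 stood apart from the other 4 libraries, with 6.12% and 5.94% of reads mapping to several places against 8.45% to 8.77%, and 0.973% and 1.14% of counts from mitochondrial genes against 2.70% to 2.97%. Summed palatal mesenchyme markers (Prrx1, Twist1, Osr2, Pax9 and Pdgfra) lay at 1714 to 1880.1 CPM in the anterior libraries and 1477 to 1799 CPM in the posterior libraries, but of these 5 genes 2 were called higher and 1 lower in the posterior palate, with a median log2 fold change of 0.54. All 8 skeletal muscle markers were higher in the posterior palate, with summed levels of 536 to 932 CPM against 6.37 to 10.6 CPM, and 2 of 4 chondrocyte markers tested were higher there, with sums of 516 to 659 against 128 to 171 CPM. Osteoblast markers summed to 1959 to 3551 CPM in the anterior and 291 to 1817 CPM in the posterior libraries, with none of the 4 tested called, and epithelial markers to 1341 to 1465 against 957 to 1567 CPM, with 1 of 8 called lower in the posterior palate. Of the neuronal markers 1 of 5 was called higher in the posterior palate, with sums of 36.8 to 43.3 against 28.5 to 266 CPM. Endothelial markers summed to 394 to 411 against 344 to 563 CPM, myeloid markers to 87.0 to 97.8 against 94.2 to 96.2 CPM and glial markers to 18.9 to 22.6 against 15.4 to 21.4 CPM, and edgeR called no gene of these lists. No marker was at 0 in all libraries. The part of these tissue differences in the values below was not tested.

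Of 15673 genes tested by edgeR, 7.46% were called at an adjusted p under 0.05, 2.59% lower and 4.87% higher in the posterior palate. Of the 4 Iroquois genes tested, 0 were called and 1, Irx3, had an unadjusted p under 0.05, which 25.2% of all genes tested had. limma-voom called 0 of the 4, and DESeq2, which called 12.6% of all genes, called 1, again Irx3. The log2 fold change was below 0 for 4 of 4, with a median of -0.56, where 50.4% of all genes tested were below 0 with a median of -0.00.

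Irx3, which patterns the neural tube and limb and also acts in the heart and hypothalamus, had 478, 397 and 336 counts in the anterior and 271, 323 and 311 in the posterior libraries. In CPM these were 36.3, 28.9 and 29.1 against 20.3, 23.3 and 21.3. The lowest anterior library lay above the highest posterior library, a separation that 28.0% of all genes tested showed. Anterior libraries averaged 31.4 ± 4.22 CPM and posterior libraries 21.6 ± 1.55 CPM (SD, n = 3 each). The 95% interval of the log2 fold change ran from -0.84 to -0.23, and the exact two-sided permutation test over the 6 libraries gave p = 0.1, the smallest it allows. In bulk tissue, fewer cells of a type and less RNA per cell cannot be told apart. The study describes the samples as biologically independent, and which embryos each came from is not given in the sources used here, so p-values measure the spread between these samples.

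Whether Irx3 was called depended on the fit. Its adjusted p was 0.0137 with DESeq2, 0.0414 with library size as the only scaling, 0.0330 with no filter on low counts and 0.0150 without posterior replicate 1, and at or above the threshold in the other 12 alternatives, up to 0.192. The log2 fold change stayed between -0.63 and -0.42 in all 16. Without posterior replicates 2 and 3 it was -0.63 ± 0.17 (SE), with an adjusted p of 0.0756 by edgeR, in a fit that rests on 1 posterior library.

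Irx5, the partner of Irx3 in many tissues and the Iroquois gene tied to the craniofacial syndrome, had 336, 319 and 212 counts in the anterior and 171, 265 and 265 in the posterior libraries. The CPM values were 25.5, 23.2 and 18.3 against 12.8, 19.1 and 18.2. The regions overlapped, since posterior replicate 2 exceeded anterior replicate 3. Means were 22.3 ± 3.65 and 16.7 ± 3.42 CPM (SD, n = 3 each), with a log2 fold change of -0.42 ± 0.19 (SE), a 95% interval from -0.87 to 0.03 and an adjusted p of 0.223 by edgeR's quasi-likelihood test. The exact permutation test gave p = 0.200. Posterior replicate 1 was the lowest library, below both posterior libraries that stood apart in mapping. With a term for those libraries the log2 fold change was -0.81 ± 0.20 with an adjusted p of 0.0514, and with both left out it was -0.81 ± 0.21 with an adjusted p of 0.0637. Both fits rest on posterior replicate 1 alone for the posterior level, and it is assumed to vary like the other libraries. Without that library the log2 fold change was -0.26 ± 0.15 with an adjusted p of 0.186, so its size depended on posterior replicate 1.

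Irx6, the last gene of this cluster and known from retinal bipolar cells, had 4, 5 and 7 counts in the anterior and 2, 2 and 3 in the posterior libraries. Each anterior library was above each posterior library in CPM, at 0.304 to 0.606 against 0.144 to 0.206. Of all genes tested 28.0% showed such a separation. The 3 posterior libraries of Irx6 were at or below the 3 counts that a count of 0 allows. The 16 anterior counts gave 0.416 CPM with an exact 95% Poisson interval of 0.238 to 0.675, and the 7 posterior counts 0.168 CPM with 0.0674 to 0.345, so the intervals overlapped. These intervals cover counting error only. In a fit with no filter on low counts, Irx6 had a log2 fold change of -1.28 ± 0.70 and an adjusted p of 0.377 by edgeR.

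Irx1, the first gene of the chromosome 13 cluster and a factor of lung, heart and limb development, had 11, 52 and 56 counts in the anterior and 20, 18 and 26 in the posterior libraries. In CPM these were 0.835, 3.78 and 4.85 against 1.50, 1.30 and 1.78. Anterior replicate 1 was the lowest of the 6 libraries, while anterior replicates 2 and 3 were above all posterior libraries. Means were 3.15 ± 2.08 and 1.53 ± 0.243 CPM (SD, n = 3 each). The log2 fold change was -1.03 ± 0.56 (SE) with a 95% interval from -2.34 to 0.28, an adjusted p of 0.289 by edgeR and p = 0.400 by the exact permutation test. Without anterior replicate 1 it was -1.49 ± 0.29 with an adjusted p of 0.0497, so 1 library decided this call. Over the 6 fits that each left out 1 library, the log2 fold change ran from -1.49 to -0.60, the latter without anterior replicate 3.

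Irx2, the counterpart of Irx5, had 26, 17 and 45 counts in the anterior and 24, 17 and 24 in the posterior libraries. The CPM values were 1.97, 1.24 and 3.89 against 1.80, 1.23 and 1.65. Anterior replicate 3 was clear of the rest, anterior replicate 1 lay just above the posterior libraries, and anterior replicate 2 lay among them. Means were 2.37 ± 1.37 and 1.56 ± 0.294 CPM (SD, n = 3 each), with a log2 fold change of -0.59 ± 0.44 (SE), a 95% interval from -1.61 to 0.43 and an adjusted p of 0.416 by edgeR. Leaving out anterior replicate 2 gave -0.91 and leaving out anterior replicate 3 gave -0.05 on the log2 scale, so the lower posterior mean rested on that library.

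Irx4, a regulator of ventricular identity in the heart, had 2, 0 and 0 counts in the anterior and 9, 5 and 1 in the posterior libraries. The libraries of the 2 regions overlapped, and the 3 anterior libraries were below the floor of 3 counts. The 2 anterior counts gave 0.0520 CPM (exact 95% Poisson interval 0.00629 to 0.188) and the 15 posterior counts 0.359 CPM (0.201 to 0.592), so these intervals did not overlap, while the libraries did. Irx4 was the only Iroquois gene with more posterior than anterior counts, and 9 of its 15 posterior counts came from posterior replicate 1. In a fit with no filter on low counts its log2 fold change was 2.60 ± 1.11 with an adjusted p of 0.216 by edgeR.

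**Figure D1:**
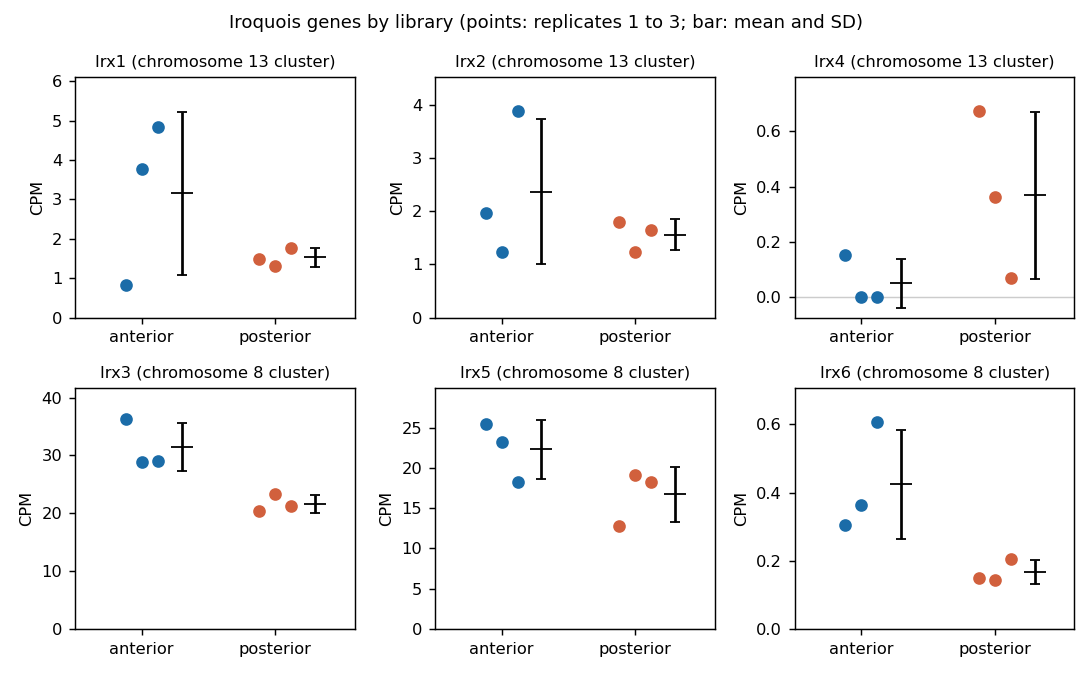
CPM of each Iroquois gene (vertical axis, its own linear scale in each panel) in the 3 anterior and 3 posterior libraries, with points for libraries and a horizontal mark with error bars for the mean and SD. Irx3 and Irx6 show no overlap between regions, a separation that 28.0% of all genes tested showed. Irx6, which was not tested, has 2 to 7 counts per library. Anterior replicate 1 is the low point of Irx1 at 0.835 CPM, and Irx4 has more counts in the posterior palate.

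**Figure D2:**
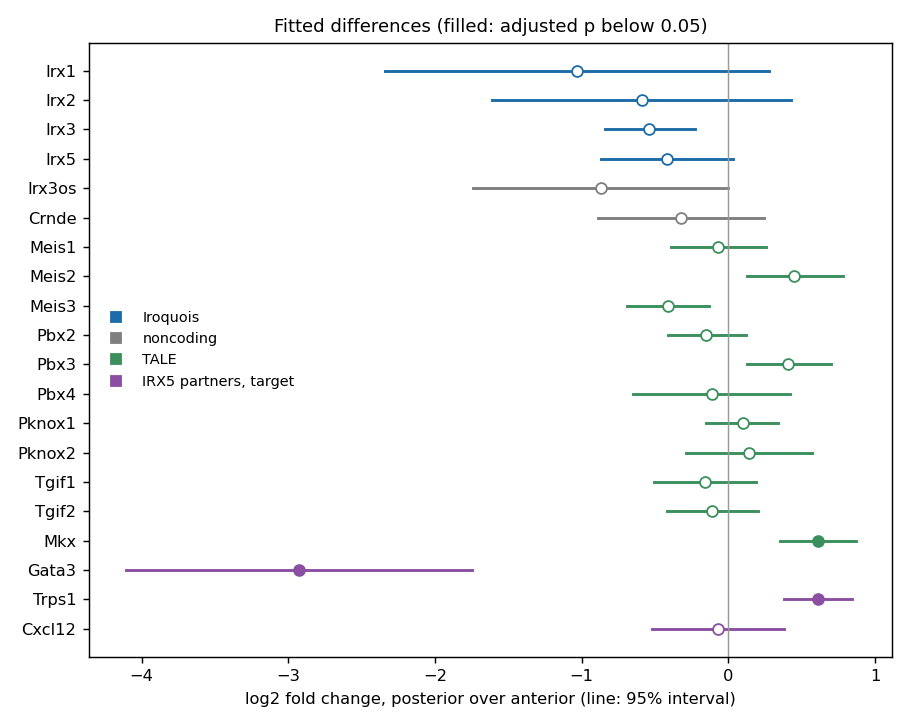
Log2 fold change (posterior over anterior, horizontal axis) with its 95% interval for the 4 Iroquois genes tested, the noncoding genes Irx3os and Crnde, other TALE homeobox genes, and Gata3, Trps1 and Cxcl12, with filled points for genes called. The 4 Iroquois genes lie at -1.03 to -0.42, and the interval of Irx3, from -0.84 to -0.23, is the one among them that does not reach 0.

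**Figure D3:**
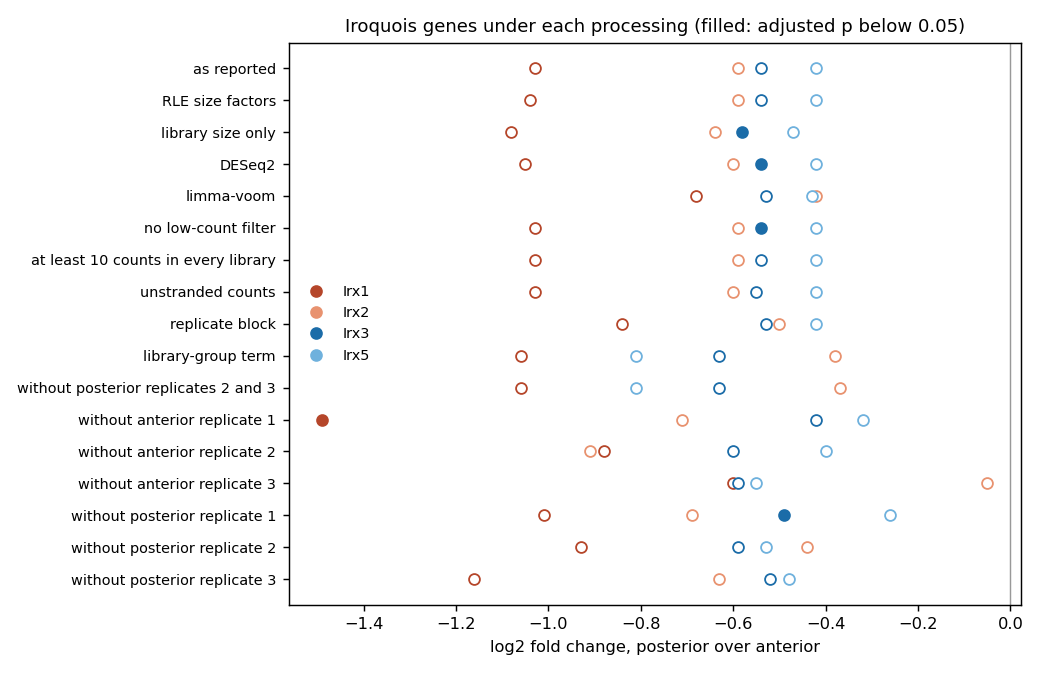
Log2 fold change of each tested Iroquois gene (horizontal axis) in the fit reported and in the 16 alternatives (1 line each), with filled points where the gene was called. Irx3 stays between -0.63 and -0.42 and is called in 4 alternatives, Irx1 in 1, and Irx2 and Irx5 in 0.

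To set genes beside each other, CPM was divided by the length of the union of annotated exons in kb. On this scale of level per length, Irx3 averaged 9.60 CPM per kb over the 6 libraries, Irx5 6.24, Irx1 0.893, Irx2 0.598, Irx6 0.0877 and Irx4 0.0803. Irx3 was above Irx5 in 6 of 6 libraries, with ratios of 1.61, 1.41 and 1.79 in the anterior and 1.79, 1.38 and 1.33 in the posterior libraries, though the ranges over all libraries met (7.34 to 13.1 against 4.09 to 8.15). Irx5 was above the whole range of Irx1 (0.319 to 1.85), and Irx1 and Irx2 overlapped (0.374 to 1.19 for Irx2) and exchanged order, with an Irx1 to Irx2 ratio of 0.530 in anterior replicate 1 and 3.83 in anterior replicate 2. Irx2 was above the whole range of Irx6 (0.0429 to 0.180), and Irx6 and Irx4 (0 to 0.258) could not be ordered. Against 15520 tested genes with a length, whose median level was 5.29 CPM per kb, Irx3 was higher than 66.0%, Irx5 than 54.5%, Irx1 than 15.8% and Irx2 than 10.8%.

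Summed over a cluster, the level per length of Irx3, Irx5 and Irx6 was 21.4, 18.0 and 16.6 CPM per kb in the anterior libraries. In the posterior libraries it was 11.5, 14.6 and 13.6 CPM per kb, and the regions did not overlap. Among single genes tested 28.0% showed such a separation. Irx3, the largest part of the sum, showed it alone, while Irx5 did not. For Irx1, Irx2 and Irx4 the sums were 0.978, 1.82 and 3.04 against 1.38, 1.01 and 1.21 CPM per kb, and they did overlap. The chromosome 8 cluster held 84.5% to 95.6% of the summed level in the anterior and 89.3% to 93.5% in the posterior libraries. The ranges of this share overlapped between regions. Irx3 was above Irx1, and Irx5 above Irx2, in every library. The Irx3 to Irx1 ratio was 41.2 in anterior replicate 1, where Irx1 was low, and 5.69 to 17.0 in the other 5 libraries, and the Irx5 to Irx2 ratio ran from 4.94 to 19.7, so the ranges overlapped. No test was made of these shares and ratios.

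**Figure D4:**
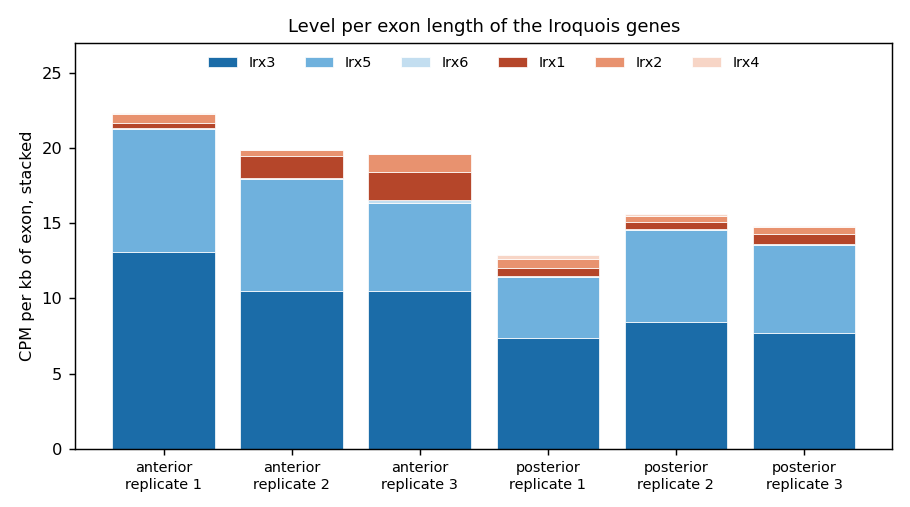
Level per length of the 6 Iroquois genes in CPM per kb of exon (vertical axis, linear from 0), stacked in 1 bar for each library, with the chromosome 8 cluster in blue and the chromosome 13 cluster in red. Irx3 and Irx5 fill most of each bar, and the blue parts reach 16.6 to 21.4 in the anterior and 11.5 to 14.6 in the posterior libraries.

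The tested noncoding genes inside the chromosome 8 cluster, Crnde and Irx3os, had lower posterior means, as Irx3 and Irx5 did, and neither passed the test. Crnde, a long noncoding RNA gene on the opposite strand to Irx5 with 1505 bases between the starts, had 66, 78 and 45 counts in the anterior and 40, 60 and 63 in the posterior libraries. Its means were 4.86 ± 0.898 and 3.88 ± 0.770 CPM (SD, n = 3 each), and its log2 fold change of -0.32 ± 0.24 had an adjusted p of 0.417 by edgeR. It was -0.17 without posterior replicate 1, -0.20 without anterior replicate 2, and -0.70 either with the term for posterior replicates 2 and 3 or without them. Its counts were 19.6% to 24.5% of those of Irx5 in all 6 libraries, while Irx5 itself ran from 12.8 to 25.5 CPM. Irx3os, which overlaps Irx3 by 1653 bases on the opposite strand, had 27, 22 and 14 counts against 9, 18 and 10, with a log2 fold change of -0.87 ± 0.37 and an adjusted p of 0.199. The regions overlapped, and its counts were 3.22% to 5.65% of those of Irx3. Of the other genes inside that span, 12 were under the filter, 8 of them at 0 in all libraries. Of 10 other genes inside the chromosome 13 span none passed the filter, and 7 were at 0 in all libraries.

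The counts were read by strand, so a gene and its antisense partner could be separated as far as the library keeps strand. Over all genes 4.50% of the counts of both strands were on the strand opposite to the gene, 2.62% at Irx3, 1.38% at Irx5, 2.66% at Irx1 and 1.92% at Irx2. At Irx3os the opposite strand, which is that of Irx3, held 77.1% of the counts (337 against 100). The genes overlap, so how many of the Irx3os counts came from Irx3 transcripts was not tested, and its values are uncertain.

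Within 1 Mb of the chromosome 13 cluster 13 of 43 genes were tested with a median log2 fold change of 0.06, 4 had an unadjusted p under 0.05, and 1 was called. This was Nkd2, an inhibitor of Wnt signalling, at 22.1 ± 2.87 CPM in the anterior and 46.9 ± 2.24 CPM in the posterior palate (SD, n = 3 each), with a log2 fold change of 1.09 ± 0.12 and an adjusted p of 0.00240 by edgeR. It was called in 16 of 16 alternatives. Within 1 Mb of the chromosome 8 cluster 14 of 71 genes were tested with a median of -0.13, and 0 were called by edgeR, with 3 at an unadjusted p under 0.05 and 1, Chd9, called by DESeq2. Over all genes tested 25.2% had an unadjusted p under 0.05 and 7.46% were called, so 1 of 13 near the chromosome 13 cluster is close to that background. Fto, whose introns hold enhancers that contact Irx3, had 264 ± 1.38 against 230.3 ± 17.4 CPM, a log2 fold change of -0.20 ± 0.09 and an adjusted p of 0.235. Chd9, a chromatin remodeller, had 448, 462 and 426 counts in the anterior and 451, 1357 and 1412 in the posterior libraries, so that only the posterior libraries that stood apart were high. Its log2 fold change was 1.13 ± 0.36 with an adjusted p of 0.111 by edgeR. Fto and Chd9 were singled out after their values were seen.

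**Figure D5:**
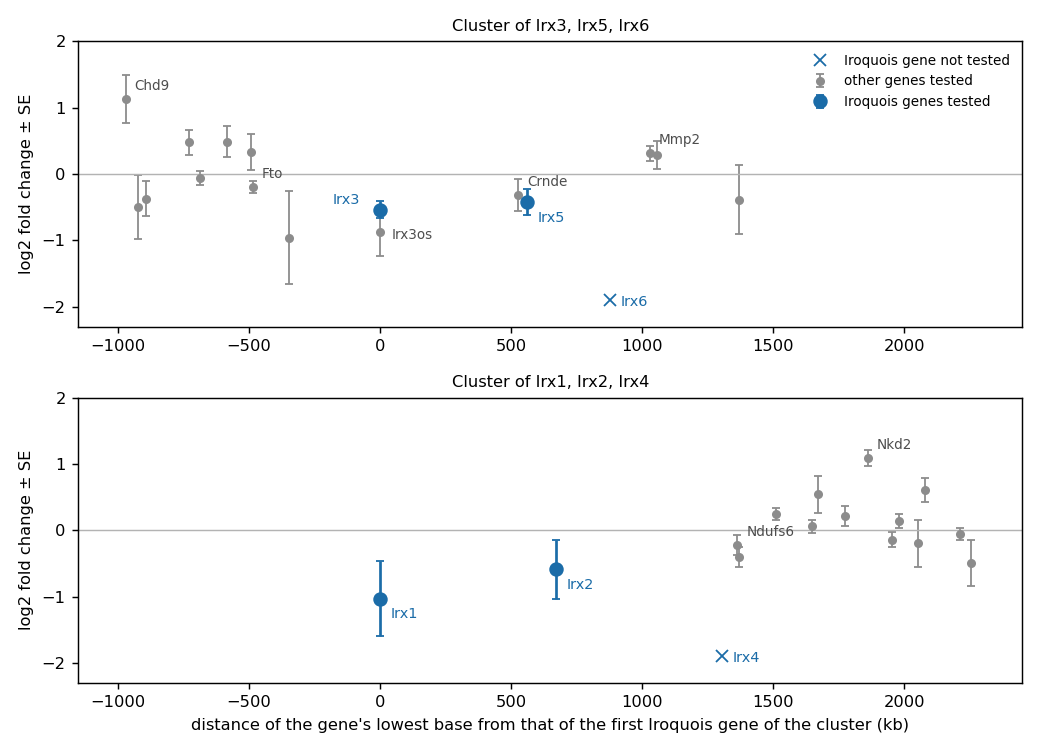
Log2 fold change ± SE (vertical axis) of tested genes within 1 Mb of each cluster, by distance in kb from the first Iroquois gene (horizontal axis), with crosses for members not tested. Nkd2 at 1.09 is the gene called. Irx3os at -0.87 and Crnde at -0.32, neither called, lie below 0, as do Irx3, Irx5 and 50.4% of all genes tested. Other genes near the chromosome 8 cluster lie on both sides of 0.

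The other TALE homeobox genes, many of which encode partners of Hox proteins, were all measured above the filter. Of these 12 genes 1 was called, higher in the posterior palate, near the 7.46% called over all genes tested, and their median log2 fold change was -0.02. Mkx, a regulator of tendon development, had 25.5, 26.3 and 26.0 CPM in the anterior and 34.7, 41.7 and 42.2 in the posterior libraries, with no overlap. Its log2 fold change was 0.61 ± 0.11 with an adjusted p of 0.0176 by edgeR, and the call was lost in 7 of 16 alternatives, with adjusted p-values up to 0.0977. Without posterior replicates 2 and 3 the log2 fold change was 0.42 (adjusted p 0.0633, with 1 posterior library left and the spread taken from the anterior libraries), and of the 6 fits without 1 library only the one without posterior replicate 1 called it. Meis2, needed in cranial neural crest for the palate, had 152 ± 18.7 against 207 ± 29.4 CPM, a log2 fold change of 0.45 ± 0.14 and an adjusted p of 0.10. Pbx3 had a log2 fold change of 0.41 ± 0.12 with an adjusted p of 0.0934, and Meis3 one of -0.41 ± 0.12 with an adjusted p of 0.0898. Meis1, Pbx2, Pbx4, Pknox1, Pknox2, Tgif1 and Tgif2 lay between -0.16 and 0.14.

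GATA3 and TRPS1 are zinc finger proteins known to bind IRX5, and Cxcl12, a chemokine that guides neural crest cells, is a known target. Gata3 had 144, 84 and 91 counts in the anterior and 9, 29 and 7 in the posterior libraries, a wide separation. Its log2 fold change was -2.93 ± 0.51 with an adjusted p of 0.0142 by edgeR, and the call was lost without anterior replicate 1 (-2.68, adjusted p 0.0650) and without anterior replicate 3 (-2.97, adjusted p 0.0517). Trps1 went the other way, at 59.3, 67.5 and 68.1 CPM against 105, 93.2 and 100.3 CPM. Its log2 fold change was 0.61 ± 0.10 with an adjusted p of 0.00994 by edgeR, lost without anterior replicate 1 (adjusted p 0.0663) and without anterior replicate 2 (adjusted p 0.0581). Cxcl12 had 212 ± 4.88 against 201 ± 54.6 CPM, with a log2 fold change of -0.07 ± 0.19 and an adjusted p of 0.822. The 2 partners of IRX5 were thus called in opposite directions, and whether their differences go with that of Irx5 was not tested.

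Genes whose pattern over the 6 libraries was most like that of a member were found as those with the smallest root mean square difference of centred log2 CPM, among 11512 protein-coding genes. This is a description over 6 libraries, in which all genes of a library share its region and depth, and likeness says nothing of function. For Irx3 they were Cd1d1, Erich1 and Dnajc12, at 0.0634, 0.0664 and 0.0768 on the log2 scale, against a median of 0.334 over all genes compared. Irx5 was at 0.176 from Irx3. For Irx5 they were Nckap1l, Fam49a and Lgi2, at 0.0785, 0.0836 and 0.0865, against a median of 0.365. For Irx1 they were Lef1, a Wnt effector, at 0.368, Crtac1 at 0.513 and Vwa2 at 0.528, against a median of 0.836. Lef1 had 5.54, 12.2 and 28.0 CPM in the anterior libraries, so it too was lowest in anterior replicate 1. For Irx2 they were Depp1, Kcne3 and 1500009L16Rik, at 0.203, 0.241 and 0.275, against a median of 0.551. Irx1 and Irx2 lay 0.774 apart, and genes of different clusters 0.517 to 0.886 apart. These distances are not comparable between members, since the counts of Irx1 and Irx2 were low.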

How the data were processed

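Bulk RNA-seq libraries of anterior (n = 3) and posterior (n = 3) palate at E14.0 were grouped by the region in their labels. The deposited values are raw counts for each gene, not normalized. The study's methods name mm10, HISAT2, StringTie and DESeq2 1.30.1, whereas the columns of the count tables are those of STAR. The version of the gene annotation is not given in the sources used here. The reverse-stranded counts were used, which exceeded those of the other strand 19.0- to 23.1-fold. Reads mapping to several places and unmapped reads (2.71% to 4.65%) stayed out. Symbols and positions came from GENCODE M21, matched with version ignored for 52073 of 56691 identifiers (35 had the same version), so exon lengths are approximate. Replicates differed by more than sampling noise (chi-square per gene 3.43 to 67.3).

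A gene was tested if 3 or more libraries had at least 10 counts. The test was the quasi-likelihood test of edgeR 4.0.16 (R 4.3.3) after TMM scaling, with region as the only term, adjusted by Benjamini-Hochberg over all tested genes and called at a threshold of 0.05. limma 3.58.1 (voom) and DESeq2 1.42.0 were alternatives, with other scalings, filters, terms and left-out libraries. The edgeR, DESeq2 and voom fits with region as the only term were first run on simulated counts in which the changed genes were known. The other scalings, filters, terms and left-out libraries were not checked in this way. The simulation held no difference between posterior libraries like that of replicates 2 and 3. Values in CPM use the TMM library sizes, and the log2 CPM of the likeness measure a prior count of 2. The genes named are the members, noncoding genes inside a cluster, called genes near one, the other TALE genes, Gata3, Trps1 and Cxcl12, and, for each member with a mean of at least 1 CPM, the 3 protein-coding genes of at least 5 CPM with the most similar pattern. Fto and Chd9 were added after their values were seen. The members and lists were chosen with earlier results of these data known. Promoter sequences are from RefSeq on GRCm38.p6, cut to the bases outside the M21 gene. RefSeq protein sequences were not used here. Not every listed gene has its own result reported here.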

Additional observations from a re-analysis of the deposited data

How the results depend on the processing

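The log2 fold changes of Irx1, Irx2, Irx3 and Irx5 stayed below 0 in all 16 alternatives, and Irx2 and Irx5 were called in 0 of them. Irx3 was called with library size only (-0.58), DESeq2 (-0.54) and no filter on low counts (-0.54), so each of these settings called 1 Iroquois gene; the cause was not tested. Over fits without 1 library, Irx3 ran from -0.60 to -0.42, Irx1 from -1.49 to -0.60, and 0 to 1 Iroquois genes were called (Irx1 without anterior replicate 1, Irx3 without posterior replicate 1). Of the TALE genes 2 were called (Meis2 and Mkx) by DESeq2 and 2 with the term for posterior replicates 2 and 3, 0 with the replicate block, and 0 to 7 without 1 library. Of the genes near the clusters 2 were called (Nkd2 and Chd9) by DESeq2 and 2 with no filter, 0 within 500 kb, and 1 to 14 without 1 library. The counts of 7 and 14 came without posterior replicate 1, when 7119 of all genes were called against 1169 with all libraries. DESeq2 called 1978 and library size only 1167 of 15673 genes tested, and the fit with no filter 2162 of 30259. The other fits without 1 library called 498 to 637 of 15343 to 15471 genes tested. The replicate numbers were not shown to pair the samples (correlations of deviations -0.053, 0.045 and 0.036, and 2 of 6 libraries correlated best with their own number). With the replicate block 829 genes were called, and Irx3 had a log2 fold change of -0.53 with an adjusted p of 0.119 by edgeR. Irx4 and Irx6 had 17 and 23 counts in all. The counting intervals of Irx6 overlapped between regions, those of Irx4 did not although its libraries did, and neither gene was called with no filter.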
